A study of Homo sapiens with 6 samples.

Results

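In order to examine which parts of the complement system kidney tubule cells transcribe, and whether these differed after ANXA2 knockdown, 9 complement genes were followed in RNA-seq libraries of HK-2 cells. HK-2 is a human cell line from the kidney proximal tubule, transformed with human papillomavirus 16. The genes were chosen by symbol and were C3, CFB, CFI, C1R, C1S, SERPING1, CD46, CD55 and CD59. All 9 were present among the 26899 genes of the counts table. The 6 libraries, of polyadenylated RNA, comprised 3 labelled control and 3 labelled ANXA2 knockdown. The labels call the control cells wild type in the titles and shCtrl in the descriptions, so whether they carried a control hairpin is not settled. Per the labels, plasmids were delivered by lipid transfection to cells grown in serum. No label says that the 3 libraries of a group came from separate cultures, so p-values measure the spread between these libraries, which may be technical.

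Complement is a cascade of plasma and tissue proteins that tags microbes and damaged cells and can lyse them. In the classical pathway, the proteases C1r and C1s are activated on antibody-bound C1q and lead to cleavage of C3, the protein on which all pathways meet. In the alternative pathway, factor B joins cleaved C3 to form an enzyme that cleaves more C3. Host cells hold the cascade in check with soluble inhibitors (factor I, which cuts active C3 fragments, and C1 inhibitor, which blocks C1r and C1s) and with surface proteins (CD46, CD55 and CD59). Liver is the main source of the soluble components, and kidney tubule epithelium is known to make some of them locally, C3 among them.

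Library depth ranged from 24231267 to 34561675 counted reads, and the shallowest library of each group was control replicate 1 and knockdown replicate 3. The targeted gene was examined as a check of the labels. ANXA2 reached 803.6 ± 53.2 FPKM (fragments per kilobase of transcript, scaled to library size) in control and 766.4 ± 7.06 FPKM in knockdown libraries (SD, n = 3). The edgeR log2 fold change was -0.05 with an adjusted p of 0.848, so a lower ANXA2 transcript was not detectable, and "knockdown" below names a label only. The kidney epithelial markers PAX8, KRT8, KRT18 and GGT1 had mean FPKM of 69.0 to 491.3, whereas the proximal tubule transport genes LRP2, AQP1 and CUBN held 1, 4 and 34 reads over all 6 libraries. Of the 7 hepatocyte markers, ALB, APOB, TTR and TF were not among the listed genes, APOA1 and AHSG were listed but not tested, and FGB was tested, with a mean of 3.502 FPKM. PTPRC, the pan-leukocyte marker, was not listed. The summed level of the 10 leukocyte markers was 4.436 to 6.613 CPM (reads per gene scaled to a common library size) in control and 4.295 to 8.843 CPM in knockdown libraries.

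Of the promoters, those of C1R and CFB alone are shown here. C1R had the largest difference between the labels among the 9 genes, and the reads of CFB may be split with a second gene model. RefSeq promoter entries (GRCh38.p14) matched 6 of the 9 genes, and C3, C1S and SERPING1 had none. Each sequence below covers the 250 bases before a transcription start, 5′ to 3′ on the strand of the gene, with matches to the searched motifs in capitals. CFB is on the plus strand (chr6:31945845-31946094) and C1R on the minus strand, with an upstream start (chr12:7092446-7092695) and a downstream start (chr12:7091894-7092143).
CFB: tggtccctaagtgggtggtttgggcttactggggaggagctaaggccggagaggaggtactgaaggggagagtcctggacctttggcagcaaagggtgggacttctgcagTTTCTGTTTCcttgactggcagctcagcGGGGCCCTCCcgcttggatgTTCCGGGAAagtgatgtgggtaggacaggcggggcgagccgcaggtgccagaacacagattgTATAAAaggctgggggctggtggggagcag
C1R upstream: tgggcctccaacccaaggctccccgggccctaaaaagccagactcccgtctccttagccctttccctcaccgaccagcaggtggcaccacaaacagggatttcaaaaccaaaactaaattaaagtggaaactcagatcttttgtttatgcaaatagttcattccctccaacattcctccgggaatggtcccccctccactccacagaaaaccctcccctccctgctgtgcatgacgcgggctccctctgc
C1R downstream: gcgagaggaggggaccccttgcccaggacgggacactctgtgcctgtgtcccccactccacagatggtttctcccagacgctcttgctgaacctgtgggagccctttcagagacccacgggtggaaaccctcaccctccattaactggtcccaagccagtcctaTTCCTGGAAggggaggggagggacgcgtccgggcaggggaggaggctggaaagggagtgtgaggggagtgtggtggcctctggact

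The motifs were searched on both strands, and a match describes the letters only. They were the NF-kB consensus, the interferon-stimulated element core (GAAA and GAAA with 2 bases between), the GAS element TTCNNNGAA, AP-1 (TGANTCA), the GC box GGGCGG, the TATA box TATAAA and CCAAT. In CFB, the interferon-stimulated core, on the reverse strand, began at position -140 from the start, the NF-kB match at -112, a GAS match at -92 and the TATA box at -30, without overlap between them. Over all 35116 promoter entries of that length, 3.02% held the interferon-stimulated core, 9.96% the NF-kB consensus, 6.57% a GAS match and 10.7% the TATA box. The downstream C1R start had a GAS match at -86, and the upstream start had no match to the 7 motifs. Of the promoters not shown, those of CD59 also held a GAS match, at -128 from start 1 and -184 from start 2.

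Transcript levels of different genes were compared per length, as deposited FPKM. CD59, the membrane protein that blocks the lytic pore, was the most abundant of the 9, with a mean of 110.3 FPKM over the 6 libraries, above 97.93% of the 26803 genes listed. C3 came next with 37.6 FPKM (above 93.81% of genes), and then CD46, the surface cofactor of factor I, with 27.23 FPKM. CD55, which dissociates the C3-cleaving enzymes, had 9.415 FPKM. The soluble proteases and factor I were lower, with 2.442 FPKM for C1S, 2.145 for CFI and 1.768 for C1R. CFB as listed had 0.1183 FPKM, and SERPING1 was at the floor of detection.

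The order was not equally firm along its length. CD59 exceeded C3 in 6 of 6 libraries with ranges that did not overlap. The same held for CD46 over CD55, CD55 over C1S, and C1R over CFB as listed. The rank of CFB is uncertain, since its reads may stand in a second gene model that shares its exons. That model had 1.52 to 6.36 FPKM, against 0.85 to 2.62 FPKM for C1R. C3 exceeded CD46 in 4 of 6 libraries only, and their ranges overlapped. C1S exceeded CFI, and CFI exceeded C1R, in 5 of 6 libraries each, again with overlapping ranges. C1S exceeded C1R in 6 of 6 libraries, by a ratio of 1.02 to 2.48, although the range of C1S (1.9 to 3.31 FPKM) overlapped that of C1R (0.85 to 2.62 FPKM).

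**Figure D1:**
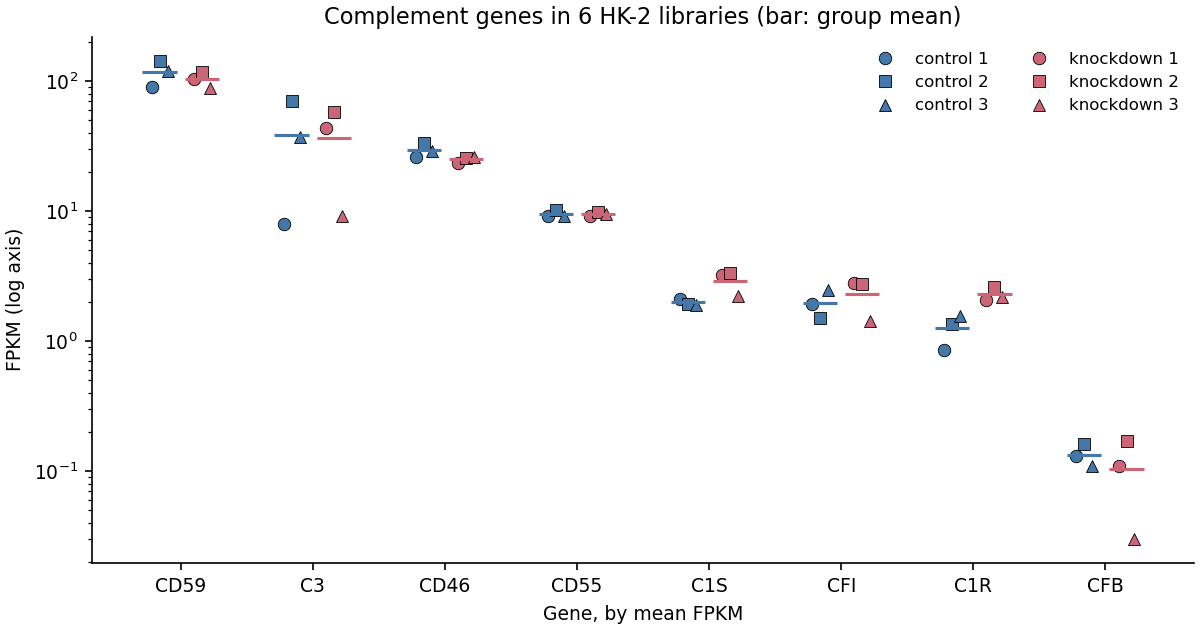
Deposited FPKM (log axis) of 8 complement genes in the 3 control (blue) and 3 knockdown (red) HK-2 libraries, with 1 point per library, a symbol shape per replicate number and a bar at each group mean. SERPING1 is not drawn, since 5 of its 6 values were 0. C3 spread from 7.99 to 70.64 FPKM without separating the labels, whereas CD55 stayed between 9.07 and 10.09 FPKM.

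SERPING1 encodes C1 inhibitor, the serpin that inactivates C1r and C1s. It had 2 reads in control replicate 3 and 0 reads in each of the other 5 libraries, and it was not tested. A count of 0 allows up to 3 reads, which is 0.0879 to 0.123 CPM per library. This floor covers counting error only. Transcripts of the inhibitor were therefore at or under the floor in these cells, while those of both of its target proteases were measured.

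The 9 genes made up different mixtures in different libraries. Their FPKM summed to 137.8, 262.2 and 201.3 in control replicates 1, 2 and 3, and to 188.1, 218.3 and 138.3 in knockdown replicates 1, 2 and 3. C3 took 5.8%, 26.9% and 18.4% of that sum in the control libraries and 23.0%, 26.4% and 6.58% in the knockdown libraries. The 3 membrane regulators together had 124.8 to 186.6 FPKM in control and 123.4 to 151.9 FPKM in knockdown libraries. The ratio of C3 to the sum of the membrane regulators was 0.064 in control replicate 1 and 0.0738 in knockdown replicate 3, against 0.234 to 0.379 in the other 4 libraries. Membrane regulator transcripts outnumbered C3 transcripts per length in all 6 libraries.

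**Figure D2:**
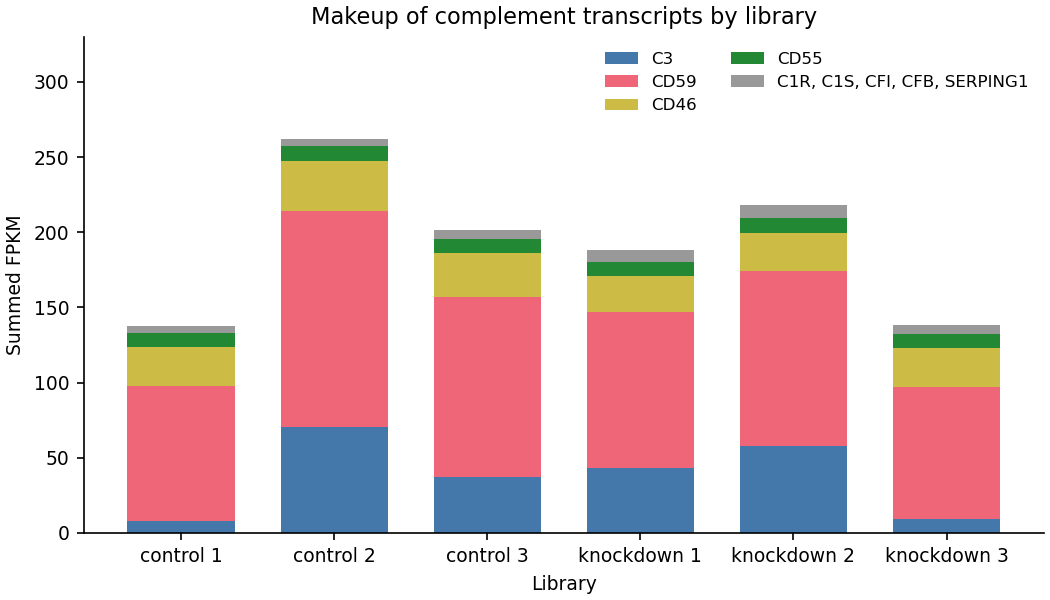
Summed FPKM of the 9 complement genes in each of the 6 libraries, stacked by gene, with the 5 least abundant genes in grey. CD59 formed 53.4% to 65.2% of each stack, and the C3 segment was smallest in control replicate 1 and knockdown replicate 3.

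To compare the labels, edgeR was run over all 15299 genes that passed the low-count filter, 8 of the 9 among them. None of the 8 passed a Benjamini-Hochberg adjusted p of 0.05, as was the case for all tested genes (0.0%). DESeq2 and limma-voom gave 0 of the 8 as well. At an unadjusted p under 0.05, 2 of the 8 (C1R and C1S) were higher in knockdown and 0 were lower, against 8.18% of all tested genes in either direction (3.86% higher and 4.32% lower). The median log2 fold change of the 8 was -0.02, with 4 above and 4 below 0. That of all tested genes was -0.01, with 7495 above and 7804 below 0. Of the 8, 3 (C3, CFB and C1R) spanned at least 1 on the log2 CPM scale over the 6 libraries, as did 28.4% of all tested genes.

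**Figure D3:**
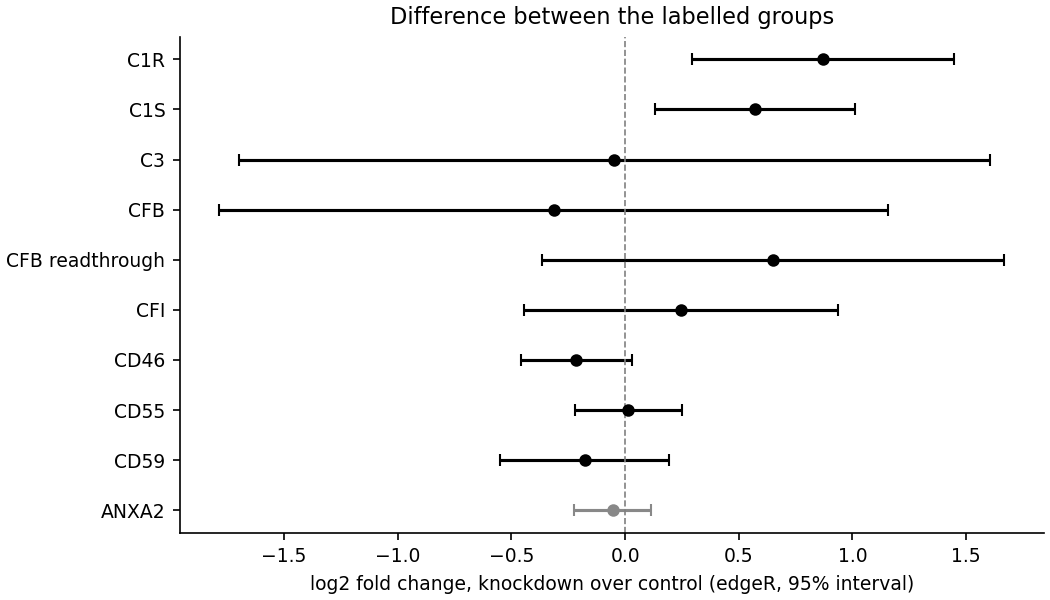
Log2 fold change of knockdown over control by edgeR (points) with 95% intervals (bars) for 8 complement genes, the readthrough gene that shares exons with CFB, and ANXA2 in grey. The intervals of C1R and C1S lay above 0, and those of C3 and CFB were the widest.

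C1R and C1S encode the sister proteases of the C1 complex and lie next to each other on chromosome 12. C1S (ENSG00000182326.14) runs on the plus strand from 6988259 to 7071032 and C1R (ENSG00000159403.15) on the minus strand from 7080214 to 7092540, with 9181 bases between their 3′ ends (GENCODE release 44, GRCh38). C1R had 61, 129 and 143 reads in control replicates 1, 2 and 3, and 209, 257 and 183 reads in knockdown replicates 1, 2 and 3. After scaling, these were 2.501, 3.95 and 4.59 CPM against 6.12, 7.78 and 6.34 CPM. All 3 knockdown libraries lay above all 3 control libraries, and control replicate 1 was the lowest.

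By edgeR, C1R differed by 0.87 on the log2 scale (SE 0.256), a 1.826-fold difference with a 95% interval of 1.225 to 2.723. Its unadjusted p was 0.00761 and its adjusted p 0.599, so the difference did not pass over all tested genes. The exact two-sided permutation p was 0.1, the smallest that 3 against 3 libraries allow. Without control replicate 1 the log2 fold change was 0.66, and without control replicate 3 it was 1.06. Part of C1R is shared with its neighbour C1RL, as 8.66% of its distinct windows of 100 bases occur in transcripts of other genes, with C1RL sharing most.

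C1S had 201, 241 and 229 reads in the control libraries and 428, 429 and 246 reads in the knockdown libraries. These were 8.24, 7.37 and 7.35 CPM against 12.5, 12.99 and 8.52 CPM. The groups did not overlap, although knockdown replicate 3 lay just above control replicate 1. By edgeR the difference was 0.57 on the log2 scale (SE 0.196), a 1.485-fold difference with a 95% interval of 1.094 to 2.015. The unadjusted p was 0.0167, the adjusted p 0.599 and the exact permutation p 0.1. An unadjusted p under 0.05 was lost without knockdown replicate 1 and without knockdown replicate 2. Complete separation of the groups, with knockdown higher for these 2 of the 8 genes and lower for 0, was seen for 15.6% of all tested genes (7.94% higher and 7.7% lower).

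Although both proteases were higher, their proportion was not constant. The ratio of C1S to C1R FPKM was 2.48, 1.42 and 1.22 in control replicates 1, 2 and 3 and 1.55, 1.26 and 1.02 in knockdown replicates 1, 2 and 3. The groups overlapped, and control replicate 1 had the highest ratio. The tested genes closest to C1R in profile were CXCL16, a membrane-bound chemokine, and PLSCR1, a phospholipid scramblase. Closeness was measured as the root mean square difference of log2 CPM centred on each gene's mean over the 6 libraries, which was 0.158 for CXCL16 and 0.171 for PLSCR1.

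Transcripts of the type I interferon response were read beside these values. Of 20 listed interferon-response genes, 19 were tested. Of these, 18 were above 0, against 7495 of all 15299 tested genes, with a median log2 fold change of 1.26. By edgeR 0 of the 19 passed an adjusted p of 0.05, with 17 at an unadjusted p under 0.05 (8.18% of all tested genes). Groups did not overlap for 15 of the 19, against 15.6% of all tested genes. This list was chosen with earlier results of these data known, so its counts are not independent support for a difference. Averaged over the list, log2 CPM was 3.069, 2.725 and 2.907 in control replicates 1, 2 and 3 and 4.309, 3.9 and 4.89 in knockdown replicates 1, 2 and 3. Knockdown replicate 3 was the highest for that list, while for C1R it lay between the other knockdown libraries and for C1S it was the lowest of its group. The part of the interferon response in the C1R and C1S values was not tested.

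C3 (ENSG00000125730.16, chromosome 19 from 6677704 to 6730562, minus strand) encodes the central protein of the cascade. It had 1091, 12672 and 6411 reads in control replicates 1, 2 and 3, and 8302, 10702 and 1461 reads in knockdown replicates 1, 2 and 3. These were 44.7, 388 and 206 CPM against 243, 324 and 50.6 CPM. Each group thus held 1 low library (control replicate 1, knockdown replicate 3), and the highest and lowest libraries, which differed by 8.67-fold, were both control libraries. Of the 13223 tested genes with a mean of at least 1 CPM, 86 had a wider span over the 6 libraries. In such bulk samples, fewer cells of a type and less RNA per cell cannot be told apart.

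The labels did not separate C3. The means were 212.7 ± 172 CPM in control and 206 ± 141 CPM in knockdown libraries (SD, n = 3), and the exact permutation p was 1.0. By edgeR the log2 fold change was -0.05 (SE 0.732, adjusted p 0.988). The 95% interval ran from 0.308-fold to 3.04-fold, so differences within these bounds could not be resolved. Leaving out control replicate 2 gave a log2 fold change of 0.72, and leaving out knockdown replicate 3 gave 0.42, so its sign rested on single libraries. Of the distinct windows of C3, 9.64% also occur in other gene models, with ENSG00000276980 sharing most, which held 240 reads in all.

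The tested genes closest to C3 in profile were FCAMR, a receptor for the Fc part of IgA and IgM, and CXCL5, a neutrophil-attracting chemokine. Their root mean square differences from C3 were 0.12 and 0.291 on the log2 scale. FCAMR had 0.533, 5.2 and 2.76 CPM in control replicates 1, 2 and 3 and 3.11, 3.76 and 0.727 CPM in knockdown replicates 1, 2 and 3. CXCL5 had 39.6, 374 and 210 CPM against 215, 260 and 76.1 CPM. Both genes were lowest in control replicate 1 and knockdown replicate 3, as C3 was.

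The acute-phase genes, which liver and epithelium make under inflammatory cytokines, showed the same libraries at the low end. Of 18 listed genes, 7 were tested, 4 were above and 3 below 0, and 0 passed an adjusted p of 0.05 or an unadjusted p under 0.05 by edgeR, nor did DESeq2 or limma-voom call any. LCN2, an iron-siderophore binding protein, had 3.66, 172.87 and 86.1 FPKM in the control libraries and 129.07, 165.07 and 9.13 FPKM in the knockdown libraries, a span of 47.2-fold. SAA1, an acute-phase apolipoprotein, had 0.91, 43.03 and 22.72 FPKM against 16.54, 29.71 and 4.8 FPKM. Both were lowest in control replicate 1 and knockdown replicate 3.

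Among the other acute-phase genes named, the pattern was narrower or differed. PTX3, a pattern recognition protein that binds C1q, had 6.92, 12.66 and 31.82 FPKM in the control libraries and 38.62, 50.92 and 13.44 FPKM in the knockdown libraries. Its log2 fold change was 1.02 with an adjusted p of 0.638. SERPINA1, the elastase inhibitor, had 46.34, 82.41 and 85.2 FPKM in the control libraries and 64.69, 72.35 and 41.85 FPKM in the knockdown libraries. It too was lowest in control replicate 1 and knockdown replicate 3, over a narrower span of 2.04-fold. FGB, a fibrinogen chain, ran the other way, with its highest value of 7.09 FPKM in control replicate 1 and its lowest of 1.46 FPKM in control replicate 2.

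Genes of the NF-kB response were low in the same libraries. The 15 listed genes found summed to 1103, 3417 and 5105 CPM in control replicates 1, 2 and 3 and to 4920, 6073 and 1964 CPM in knockdown replicates 1, 2 and 3. All 15 were tested and had a log2 fold change above 0, as did 7495 of all 15299 tested genes. Their median was 0.55, and the groups overlapped in each. By edgeR, 0 of the 15 passed an adjusted p of 0.05, with 1 at an unadjusted p under 0.05 (8.18% of all tested genes). This list too was chosen with earlier results of these data known. Control replicate 1 and knockdown replicate 3 were also the libraries with the fewest detected genes, 18861 and 19569 against 20764 to 21819 in the others. By contrast, the summed kidney epithelial markers were 2807 and 2846 CPM in these libraries and 2361 to 2966 CPM in the other 4. The part of library depth, detected genes or NF-kB genes in the C3 values was not tested.

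**Figure D4:**
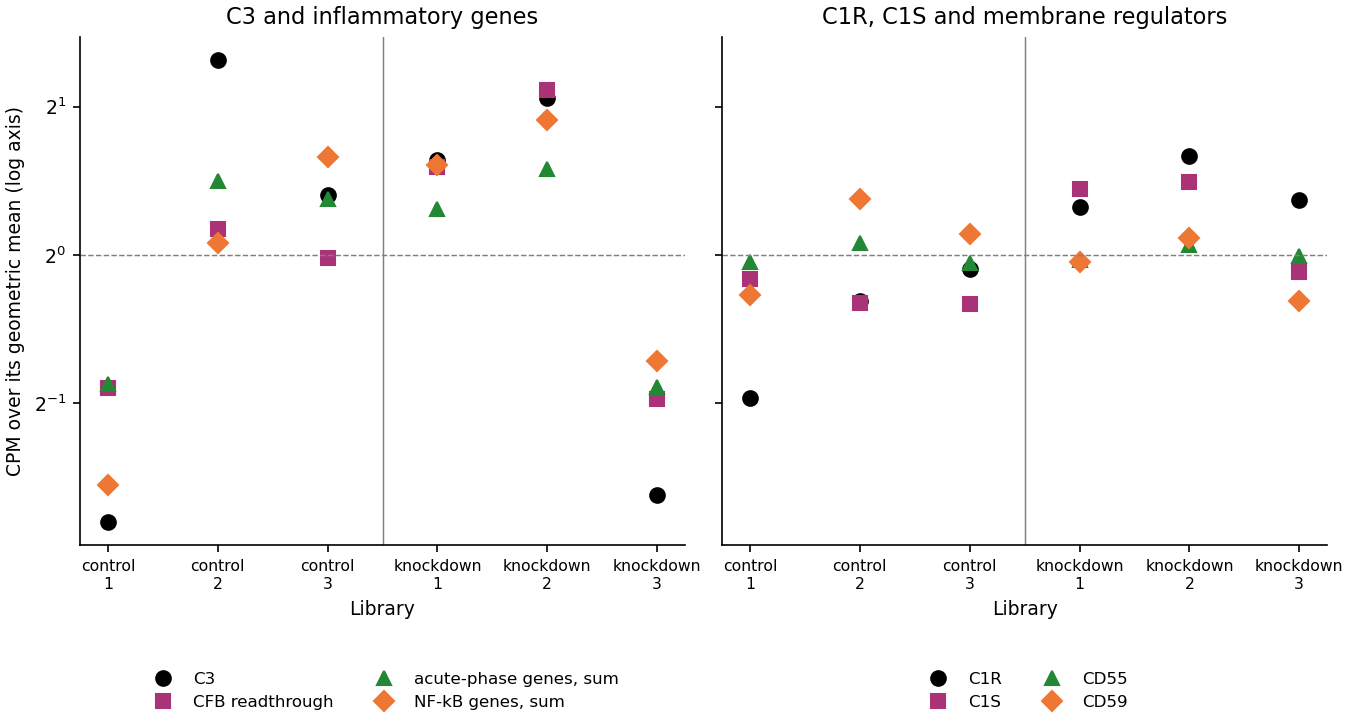
CPM of each gene, or summed CPM of a gene list, divided by its geometric mean over the 6 libraries (log axis), for C3, the CFB readthrough gene, acute-phase and NF-kB genes on the left and for C1R, C1S, CD55 and CD59 on the right. On the left, all 4 series were lowest in control replicate 1 and knockdown replicate 3. On the right, C1R was higher in the 3 knockdown libraries and CD55 stayed near 1.

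CFB (ENSG00000243649.8, chromosome 6 from 31945650 to 31952086, plus strand) encodes factor B, the protease of the alternative pathway. As listed, it had 10, 16 and 10 reads in control replicates 1, 2 and 3, and 12, 17 and 3 reads in knockdown replicates 1, 2 and 3. The level of 3 reads is at the floor of that library. The groups overlapped, and the log2 fold change was -0.31 (SE 0.653, adjusted p 0.904).

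The count of CFB cannot be read as the level of factor B transcripts. A readthrough gene (ENSG00000244255.5) spans C2 and CFB, and 55.3% of its exonic bases are exonic bases of CFB. It held 2797 reads over the 6 libraries, 41.1 times as many as CFB, while C2, with which it shares 44.7% of its exonic bases, held 7 reads. No source used here says how reads in shared exons were assigned, so reads of CFB, and likewise of C2, may stand in the readthrough gene. Of the distinct windows of CFB, 32.0% occur in other genes, with the readthrough gene sharing most.

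The readthrough gene had 1.59, 3.41 and 2.94 FPKM in control replicates 1, 2 and 3 and 4.44, 6.36 and 1.52 FPKM in knockdown replicates 1, 2 and 3. Its lowest libraries were those of C3, and its groups overlapped. The log2 fold change was 0.65 (SE 0.451), the adjusted p 0.694 and the exact permutation p 0.5. Without knockdown replicate 3 the log2 fold change was 1.05, and without knockdown replicate 2 it was 0.19. When reads of CFB and the readthrough gene were pooled (chosen after the data were seen), the values were 7.30, 14.96 and 12.97 CPM in control and 19.7, 28.2 and 6.65 CPM in knockdown libraries. The log2 fold change of the pooled CFB was then 0.63 (SE 0.448, adjusted p 0.704), the opposite sign to that of CFB as listed.

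CFI (ENSG00000205403.12, chromosome 4 from 109731008 to 109802150, minus strand) encodes factor I, the protease that inactivates C3b with CD46 as cofactor. It had 4.88, 3.70 and 6.20 CPM in control replicates 1, 2 and 3 and 7.09, 6.87 and 3.53 CPM in knockdown replicates 1, 2 and 3. The highest and the lowest libraries were both knockdown libraries. On the log2 scale the difference was 0.25 (SE 0.306, adjusted p 0.83), and it was 0.51 without knockdown replicate 3 and 0.08 without control replicate 2. Of its windows, 26.4% also occur in other gene models, with ENSG00000285330 sharing most, a model that was not listed in the counts table.

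The membrane regulators had the narrowest spans of the 8 tested genes. CD55 (ENSG00000196352.13, chromosome 1 from 207321519 to 207386804, plus strand) had 35.1, 38.3 and 34.99 CPM in control replicates 1, 2 and 3 and 35.4, 38.0 and 36.2 CPM in knockdown replicates 1, 2 and 3. These 6 values spanned 1.0955-fold, and 13104 of the 13223 genes with at least 1 CPM spanned more on the log2 CPM scale. Its log2 fold change was 0.01 (SE 0.104, adjusted p 0.976), and the 95% interval of 0.859-fold to 1.19-fold was the narrowest of the 8 on the log2 scale.

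CD46 (ENSG00000117335.18, chromosome 1 from 207752037 to 207795513, plus strand) had 93.0, 117 and 104 CPM in the control libraries and 85.1, 91.7 and 93.2 CPM in the knockdown libraries. Knockdown replicate 3 and control replicate 1 were nearly equal, so the groups overlapped by a small margin. Its log2 fold change was -0.21 (SE 0.109), with an unadjusted p of 0.0794 and an adjusted p of 0.626. The 95% interval ran from 0.728-fold to 1.02-fold.

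CD59 (ENSG00000085063.14, chromosome 11 from 33703010 to 33736479, minus strand) had 261, 408 and 347 CPM in control replicates 1, 2 and 3 and 304, 341 and 253 CPM in knockdown replicates 1, 2 and 3. It too was lowest in control replicate 1 and knockdown replicate 3, over a span of 1.61-fold. Its log2 fold change was -0.18 (SE 0.166), the adjusted p 0.765 and the exact permutation p 0.4. Without control replicate 1 it was -0.33, and without control replicate 2 it was -0.02.

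The rest of the pathway was examined in 52 further genes of complement components, regulators and receptors. Of these, 33 were in the counts table and 16 passed the filter. By edgeR, 0 passed an adjusted p of 0.05, and the same count was given by DESeq2 and limma-voom. At an unadjusted p under 0.05 there was 1 gene of the 16, against 8.18% of all tested genes. It was COLEC12, a scavenger receptor of the collectin family (adjusted p 0.605), with 0.41 ± 0.0624 FPKM in control and 0.2 ± 0.1 FPKM in knockdown libraries (SD, n = 3). The median log2 fold change of the 16 was 0.09, with 11 above and 5 below 0, against 7495 above and 7804 below over all tested genes.

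Some genes of the classical and lectin pathways held few reads or were not listed. C1QA, C1QB and C1QC were not among the listed genes. MASP1 and MASP2 held 2 reads each over all libraries and MBL2 held 1. C2 as listed held 7 reads. As for CFB, this count cannot be read as the level of C2 transcripts. Reads of C2 may stand in the readthrough gene, which held 2797 reads and shares 44.7% of its exonic bases with C2. C4A and C4B held 107 and 93 reads, and since these genes are near-identical copies, the division between them is uncertain. C5, which starts the lytic pathway, had 0.383 ± 0.0808 FPKM in control and 0.55 ± 0.0361 FPKM in knockdown libraries (SD, n = 3), a difference with an unadjusted p of 0.0744 and an adjusted p of 0.62 by edgeR. VTN, the plasma regulator vitronectin, held 10 reads.

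For the pathway genes with the highest FPKM, no difference between the labels passed the adjusted threshold, which does not show that their levels were steady. CALR, the chaperone calreticulin, which also binds C1q, had a mean of 1232 FPKM and a log2 fold change of 0.02, and C1QBP, a mitochondrial protein that can bind C1q, had 149.5 FPKM and 0.02. CLU, the secreted chaperone clusterin that inhibits the lytic complex, had 7.043 FPKM and 0.13, and ITGB2, the shared beta chain of complement receptors, had 5.26 FPKM and 0.06. Their adjusted p-values by edgeR lay between 0.868 and 0.977. Intervals of the log2 fold change were -0.14 to 0.19 for CALR and -0.26 to 0.29 for C1QBP. They were -0.32 to 0.58 for CLU and -0.22 to 0.33 for ITGB2. C1RL, a C1r-like protease, had 1.54, 1.27 and 1.22 FPKM in control replicates 1, 2 and 3 and 1.88, 2.54 and 1.3 FPKM in knockdown replicates 1, 2 and 3. By edgeR its log2 fold change was 0.52 (interval -0.06 to 1.10) with an unadjusted p of 0.0746, and the groups overlapped.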

How the data were processed

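RNA-seq of 6 HK-2 libraries was analysed from the table of raw counts per gene deposited by the authors, and levels between genes from the FPKM values deposited by the authors, rounded to 2 decimals. The submitters' processing notes name bcl2fastq, TopHat2, edgeR and GRCh38 without a role, so the counting program, annotation and strand setting stay unknown here. Counts of 15299 genes (filterByExpr, minimum count 10, total 15) were analysed in edgeR 4.0.16 by its quasi-likelihood test (R 4.3.3, TMM scaling, no covariates, two-sided, Benjamini-Hochberg, threshold 0.05). CPM are counts scaled to the library's reads in tested genes times its TMM factor, and log2 CPM used a prior count of 2. Intervals are 95%. The scripts were tested on simulated data. Single values were compared by exact permutation tests (SciPy 1.17.1). Replicates within groups differed beyond sampling noise (chi-square per degree of freedom 10.3 to 54.2). Depth per library was 24231267 to 34561675 reads, and intervals and floors cover counting error only where named so.

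The 9 genes and the lists were chosen with earlier results of these data known. Named genes were the 9, ANXA2, exon-sharing genes, the 5 most abundant genes of each list where fewer than 3 passed, and the 2 closest profiles (mean of at least 1 CPM) of each gene spanning at least 1 on the log2 CPM scale. These were C3, C1R and CFB. For CFB they were FAM95C and ZNF585A, at distances of 0.15 and 0.159. COLEC12, C5 and the pathway genes given by reads alone or as not listed were named after their values were seen. The marker lists of fibroblasts (summed 31.91 to 41.32 CPM in control, 32.06 to 33.1 CPM in knockdown libraries), hepatocytes (2.998 to 14.88 and 4.179 to 8.208 CPM) and endothelium (0.0 to 0.2141 and 0.0 to 0.3937 CPM) were also read. FGB stood in 2 lists, acute-phase and hepatocyte. Locations, shared exons and shared windows are from GENCODE release 44. Alternatives were other scalings, no filter, DESeq2 1.42.0, limma-voom and limma-trend (limma 3.58.1), a replicate block and omission of libraries.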

Additional observations from a re-analysis of the deposited data

How the results depend on the processing

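Under every alternative, 0 of the 8 tested complement genes passed an adjusted p of 0.05, and C1R, C1S, CFI, CD46 and CD59 kept their sign. The count at an unadjusted p under 0.05 was 2 as reported (C1R and C1S), 1 without knockdown replicate 1 or 2 (C1R), 4 without control replicate 1 (C1R, C1S, CD46 and CD59), 3 without control replicate 1 and knockdown replicate 3 (C1R, C1S and CD46) and 2 under the other alternatives. Over all tested genes, edgeR gave 0 calls (1251 at an unadjusted p under 0.05), against 165 without the low-count filter, 31 with DESeq2, 0 to 4 when 1 library was left out (4 without knockdown replicate 2) and 6 without control replicate 1 and knockdown replicate 3, an alternative chosen after the data were seen. Without the filter, 1 acute-phase gene passed (PTX3). The log2 fold change of C3 turned to 0.02955 with limma-voom, 0.03196 on log2(FPKM + 1) with and without a filter and 0.03807 on log2(FPKM + 0.1), and spanned -0.53 to 0.72 when 1 library was left out. That of CFB spanned -0.80 to 0.09 when 1 library was left out, and was 0.09287 without control replicate 1 and knockdown replicate 3, and 0.63 pooled with the readthrough gene. That of CD55 was -0.009697 by library size only and spanned -0.01106 to 0.06038 when 1 library was left out. The causes were not tested. The replicate block gave 0 calls over all tested genes and 2 of the 8 at an unadjusted p under 0.05. Same-numbered libraries had deviation correlations of -0.0616, 0.118 and -0.203, and 1 of 6 libraries correlated best with its own number, so numbers were not taken as pairs. SERPING1, with 2 reads in all, was at or under the floor of 3 reads in each library.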
